A study of Mus musculus with 18 samples.

Results

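Chemokine ligands were followed as 39 probe sets for 38 genes, out of 19572 probe sets with a gene name for 19505 genes on a Clariom S array, which measures transcript abundance by hybridisation. A probe set was taken when its gene symbol was Cxcl or Ccl with a number and at most 1 letter, or was Xcl1 or Cx3cl1. All arrays came from C57BL/6 mice aged 5 to 6 weeks and labelled female, with 3 arrays in each of 6 groups. In order of tissue these were lncKO pituitary, miR-205 KO pituitary and WT pituitary, and lncKO skin, miR-205 KO skin and WT skin. The lncKO mice lack MIR205HG, the noncoding host transcript of miR-205, and the miR-205 KO mice lack the microRNA itself. How the alleles were made is not given in the sources used here, no animal was treated, and the extraction text names a segment of ear. No label states whether the 3 samples in a group are from 3 different mice, and p-values therefore rest on a sample-to-sample spread that could be technical. Neither knockout allele could be checked, since no probe set named here reads MIR205HG or miR-205.

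Chemokines are small secreted proteins that draw leukocytes along a gradient by binding G protein-coupled receptors. CC and CXC ligands are named after the spacing of their first cysteines, and Cx3cl1 and Xcl1 stand for the smaller CX3C and C classes. In skin, keratinocytes, fibroblasts, lymphatic vessels and resident macrophages each make their own set, some at all times and some after injury or cytokine stimulation. Many genes of the family stand in clusters: 12 of the 38 lie on chromosome 11, 11 on chromosome 5, 5 on chromosome 4 and 4 on chromosome 8.

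The mature strands of miR-205 are shown because their loss defines a knockout group, with the seed (bases 2 to 8) in capitals. RefSeq places mmu-miR-205-5p at chr1:193507503-193507524 and mmu-miR-205-3p at chr1:193507467-193507488, both on the minus strand of GRCm38.p6.
mmu-miR-205-5p: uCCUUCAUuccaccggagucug
mmu-miR-205-3p: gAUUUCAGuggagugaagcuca

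Promoter windows of 4 ligands are shown because these probe sets carry the largest called changes of a knockout against WT within a tissue, among those with a single listed start: Cxcl9 (chr5:92328080-92328329, minus strand), Ccl8 (chr11:82114935-82115184, plus strand), Cxcl10 (chr5:92348890-92349139, minus strand) and Cxcl3 (chr5:90785851-90786100, plus strand). Each holds the 250 bases before the RefSeq start in GRCm38.p6. Capitals mark every match, on either strand, to the letters GGGANNTTCC (NF-kB), TTTCNNTTTC (interferon response element), TTCNNNGAA (STAT) or TATAAA (the core promoter box).
Cxcl9: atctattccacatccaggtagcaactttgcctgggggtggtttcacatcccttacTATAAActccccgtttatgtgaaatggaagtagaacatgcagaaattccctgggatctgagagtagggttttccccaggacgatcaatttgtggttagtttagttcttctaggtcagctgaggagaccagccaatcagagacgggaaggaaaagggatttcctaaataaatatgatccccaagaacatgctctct
Ccl8: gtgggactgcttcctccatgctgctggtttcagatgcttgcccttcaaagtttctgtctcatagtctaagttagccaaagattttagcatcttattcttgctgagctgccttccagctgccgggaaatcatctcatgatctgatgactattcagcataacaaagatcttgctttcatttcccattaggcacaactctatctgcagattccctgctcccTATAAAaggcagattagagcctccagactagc
Cxcl10: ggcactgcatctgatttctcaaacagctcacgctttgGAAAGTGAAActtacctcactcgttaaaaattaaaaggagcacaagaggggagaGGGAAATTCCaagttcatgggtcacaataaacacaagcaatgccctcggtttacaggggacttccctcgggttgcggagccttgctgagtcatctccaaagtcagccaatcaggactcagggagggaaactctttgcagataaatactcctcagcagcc
Cxcl3: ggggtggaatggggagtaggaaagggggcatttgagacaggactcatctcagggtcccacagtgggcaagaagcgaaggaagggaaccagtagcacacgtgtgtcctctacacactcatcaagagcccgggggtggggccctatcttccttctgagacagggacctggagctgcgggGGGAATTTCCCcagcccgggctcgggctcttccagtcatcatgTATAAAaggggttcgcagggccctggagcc

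The table of promoters held 29 windows for 26 of the 38 member genes. The NF-kB letters were found in 5 of the 29 windows, those of Ccl1, Cxcl1, Cxcl2, Cxcl3 and Cxcl10, and in 1.21% of all 32851 windows. The interferon letters were found in 3 of the 29 (Ccl19, Cxcl10 and Cxcl14) and in 2.98% of all windows, and the STAT letters in 2 of the 29 and in 7.02%. TATAAA was found in 9 of the 29 windows and in 12.4% of all windows. Cxcl3, which was higher in knockout skin, and Cxcl10, which was lower there, both carry the NF-kB letters, at bases -73 and -159 from the start. The Cxcl3 block matches on both strands, 1 base apart. A match is a description of these letters and shows no binding.

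Some readings share a source. The first of the Ccl21b probe sets (set A) and the Ccl21c probe set gave identical values on all 18 arrays, so 1 reading stands for both, and the Ccl21 genes are near-identical copies whose signals cannot be assigned to a single gene. Ccl1 and Cxcl5 stood at 16 intensity units or less on every array, a level that 22.83 to 25.27% of all probe sets of an array did not pass, and 22 of the 39 probe sets were above it on all 18 arrays. A dim value of this kind limits how far a fold can be read, since the arrays' own background level was not given.

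Skin WT array 1 stood apart from the other WT skin arrays. It was the highest of the 9 skin arrays for 13 of the 39 probe sets, and 5 probe sets read at least 3 times higher there than on either other WT array. Ccl2, the main monocyte attractant through Ccr2, read 1257 on WT array 1 but 103 and 82 on WT arrays 2 and 3. Ccl3, a macrophage product that binds Ccr1, read 576 there and 68 and 52 on the others, and Cxcl2, a neutrophil attractant, read 102 there and 10 and 11 on the others. Ccl7 and Ccl9 had the same pattern. That array read highest of the WT skin arrays for the inflammatory cytokine Il1b, at 448 against 32 and 31, and for the neutrophil gene S100a9, at 869 against 169 and 67. It also read 2501 for the pituitary hormone gene Gh, where the other WT skin arrays read 29 and 76. Calls that change when this array is left out are given both ways. Fits without it keep only WT arrays 2 and 3 of WT skin. The array was set apart by chemokine values themselves, so calls gained without it are not separate evidence of a change.

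**Figure D1:**
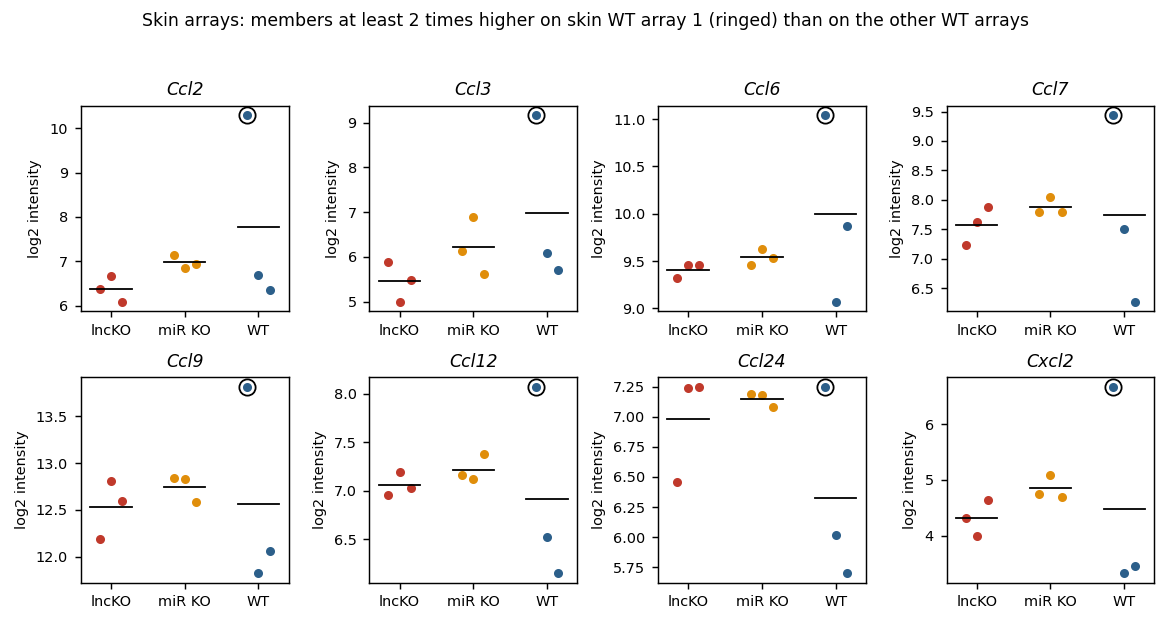
The 8 chemokine probe sets that read at least 2 times higher on skin WT array 1 than on the other WT skin arrays, with log2 intensity on the y axis and the skin groups on the x axis (lncKO, miR-205 KO, WT). Points are arrays, bars are means of 3 and the ring marks WT array 1, which for Ccl2 read 1257 while the other 8 skin arrays read 68 to 142.

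In lncKO skin, Ccl8, Cxcl3 and Ccl20 rose and Ccl27a, Cxcl10 and Cxcl12 fell against WT skin. A call here is a Benjamini-Hochberg adjusted p under 0.05 from limma over all 19572 probe sets, and changes are differences of mean log2 intensity with their standard errors, from 3 arrays in each group. Of the 39 chemokine probe sets 3 were called higher and 3 lower, shares close to the 6.21% called higher and 9.17% called lower of all probe sets. The split over all probe sets, 1215 higher and 1794 lower, moved to 1524 and 1509 after quantile normalisation and to 1546 and 1403 after centring each array on its median, while that of the chemokines stayed 3 and 3. The median log2 difference was -0.16 over the 39 and -0.07 over all probe sets.

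In miR-205 KO skin these 6 probe sets were called in the same directions, and Cxcl16 and Cxcl17 rose and Cx3cl1 fell as well. Of the 39, 5 were called higher and 4 lower, where 6.79% of all probe sets were called higher and 10.0% lower. The split over all probe sets was 1328 higher and 1965 lower, 1627 and 1631 after quantile normalisation, and 1681 and 1586 after median centring. The median difference was 0.07 over the 39 and -0.07 over all probe sets. Both knockouts were set against the same 3 WT skin arrays, so what is common to both comparisons includes the spread of those arrays. Fewer cells of a type and less RNA per cell cannot be told apart in these bulk tissues.

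**Figure D2:**
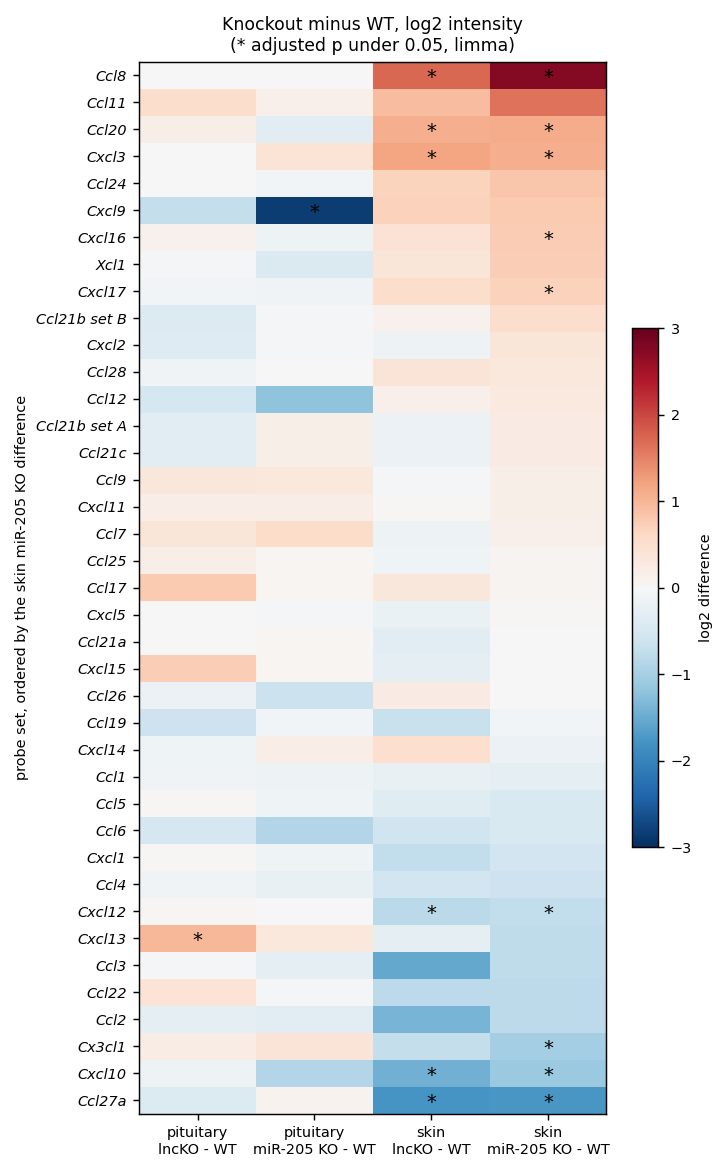
Log2 difference of each knockout from WT for all 39 chemokine probe sets (y axis), in pituitary and skin (x axis), with colour from -3 (blue) to 3 (red) and an asterisk where the adjusted p was under 0.05. Asterisks stand at 6 probe sets in lncKO skin, 9 in miR-205 KO skin and 1 in each pituitary column.

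Among the monocyte and macrophage CC ligands, 1 of 10 was called in each skin comparison. Ccl8, which in mice binds Ccr8 and is made by dermal macrophages, read 2745, 4328 and 2674 in lncKO skin. It read 6108, 7309 and 5914 in miR-205 KO skin and 1185, 1158 and 632 in WT skin. The 3 groups did not overlap, with miR-205 KO skin highest and WT skin lowest. Ccl8 was 3.32-fold higher in lncKO skin than in WT skin (log2 difference 1.73 ± 0.28, adjusted p = 0.00219). It was 6.73-fold higher in miR-205 KO skin than in WT skin (2.75 ± 0.28, adjusted p = 0.00015). Its receptor gene Ccr8 read 10 to 22 on every knockout skin array and 13 to 16 on the WT skin arrays.

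Ccl2 read 83, 102 and 68 in lncKO skin and 142, 116 and 123 in miR-205 KO skin, against 1257, 103 and 82 in WT skin. The knockout arrays lie within the range of the WT arrays or just below it, and neither difference was called. The log2 difference was -1.40 ± 0.73 in lncKO skin and -0.80 ± 0.73 in miR-205 KO skin, and without WT array 1 it was -0.14 (adjusted p = 0.743) and 0.46 (adjusted p = 0.243). Ccl4, a product of activated macrophages and T cells, read 58, 54 and 48 in lncKO skin and 52, 44 and 60 in miR-205 KO skin, against 91, 84 and 64 in WT skin. All knockout arrays were below all WT arrays, by -0.57 ± 0.22 in lncKO skin (adjusted p = 0.103) and -0.61 ± 0.22 in miR-205 KO skin (adjusted p = 0.0784). Ccl5, a product of activated T cells, was dim, at 14, 22 and 15 in lncKO skin and 15, 17 and 15 in miR-205 KO skin, against 22, 25 and 18 in WT skin.

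Of the 5 Cxcr2 ligands, which draw neutrophils, only Cxcl3 was called. It read 87, 125 and 146 in lncKO skin and 115, 100 and 111 in miR-205 KO skin, against 59, 48 and 47 in WT skin. Every knockout array was above every WT array. The log2 difference was 1.19 ± 0.23 in lncKO skin (adjusted p = 0.0058) and 1.09 ± 0.23 in miR-205 KO skin (adjusted p = 0.00847). Cxcl1, from the same gene cluster, gave no call and read 9, 16 and 14 in lncKO skin and 18, 17 and 9 in miR-205 KO skin, against 22, 19 and 22 in WT skin. The Cxcl1 difference in lncKO skin was -0.73 ± 0.30 (adjusted p = 0.114), at levels close to the dimmest on the array. With every value under 16 set to 16 it was called, at -0.39 in lncKO skin (adjusted p = 0.0201) and -0.30 in miR-205 KO skin (adjusted p = 0.0388). A fit of all 18 arrays also called Cxcl1 in lncKO skin (adjusted p = 0.0473). Cxcl2 gave a call only without skin WT array 1, when it was 0.93 higher in lncKO skin on the log2 scale (adjusted p = 0.035) and 1.46 higher in miR-205 KO skin (adjusted p = 0.00491).

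Of the 3 interferon-induced Cxcr3 ligands, Cxcl10 alone was called in skin. Cxcl10 read 14, 12 and 14 in lncKO skin and 15, 15 and 21 in miR-205 KO skin, against 42, 34 and 33 in WT skin. The knockout arrays all lay below the WT arrays, most of them under 16 units. The log2 difference was -1.44 ± 0.22 in lncKO skin (adjusted p = 0.00149) and -1.11 ± 0.22 in miR-205 KO skin (adjusted p = 0.00589). Cxcl9 read 79, 109 and 142 in lncKO skin and 125, 140 and 85 in miR-205 KO skin, against 59, 55 and 89 in WT skin. Its groups overlapped, and differences of 0.69 ± 0.29 (adjusted p = 0.121) and 0.79 ± 0.29 (adjusted p = 0.0783) missed the threshold. Without WT array 3 the miR-205 KO difference of Cxcl9 was 1.00 and was called (adjusted p = 0.0479). Cxcl11, the remaining member of this group, read 8 to 19 on all knockout skin arrays and 8 to 12 on the WT skin arrays.

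Among the homeostatic and membrane-bound ligands, Cxcl12 fell in both knockouts. This ligand binds Cxcr4 and Ackr3 and is made by fibroblasts and other stromal cells. Cxcl12 read 4929, 5651 and 5055 in lncKO skin and 5042, 5842 and 5641 in miR-205 KO skin. WT skin read 8343, 10034 and 9215, above every knockout array. It was 1.76-fold lower in lncKO skin (log2 difference -0.82 ± 0.20, adjusted p = 0.0161) and 1.67-fold lower in miR-205 KO skin (-0.74 ± 0.20, adjusted p = 0.0241). The lncKO call was lost without WT array 2 or lncKO array 4, with adjusted p up to 0.0551. The miR-205 KO call held without WT array 1 and was lost without any of the other 5 arrays, with adjusted p up to 0.0893.

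Cx3cl1, a ligand with a membrane anchor that binds Cx3cr1, read 49, 37 and 40 in lncKO skin and 37, 36 and 30 in miR-205 KO skin, against 48, 92 and 74 in WT skin. Only the miR-205 KO arrays all lay below the WT arrays. The difference was -1.01 ± 0.26 in miR-205 KO skin (adjusted p = 0.0185) and -0.72 ± 0.26 in lncKO skin (adjusted p = 0.0747, or 0.0347 in a fit of all 18 arrays). Without WT array 1 both were called, at -1.27 (adjusted p = 0.00679) and -0.98 (adjusted p = 0.0216). Without WT array 2, WT array 3 or miR-205 KO array 9 the miR-205 KO call was lost, with adjusted p up to 0.072.

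Cxcl16, a transmembrane ligand of Cxcr6, read 1789, 1843 and 2091 in lncKO skin and 2347, 2870 and 2021 in miR-205 KO skin, against 1277, 1545 and 1409 in WT skin. All knockout arrays were above all WT arrays, and the miR-205 KO difference of 0.76 ± 0.21 was called (adjusted p = 0.0277). The mucosal ligand Cxcl17 read 20, 24 and 22 in lncKO skin and 24, 24 and 26 in miR-205 KO skin, against 15, 15 and 16 in WT skin. All knockout arrays were above all WT arrays, with every value near the dim end, and the miR-205 KO difference was 0.69 ± 0.20 (adjusted p = 0.0302). In lncKO skin it was 0.52 ± 0.20 (adjusted p = 0.0902), and with values under 16 set to 16 it was 0.46 and was called (adjusted p = 0.0121). The Cxcl17 call was lost on leaving out any 1 of the 6 arrays, with adjusted p from 0.0579 to 0.084, and that of Cxcl16 on leaving out WT array 1 or 3 or miR-205 KO array 7 or 8, with adjusted p up to 0.108.

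Cxcl14, an epithelial ligand abundant in resting skin, read 446, 1603 and 837 in lncKO skin and 860, 562 and 302 in miR-205 KO skin, against 634, 717 and 460 in WT skin. The groups overlapped widely. Cxcl13, the B cell attractant that binds Cxcr5, read 74, 115 and 167 in lncKO skin and 41, 85 and 152 in miR-205 KO skin, against 35, 195 and 378 in WT skin. The WT arrays spanned all the knockout values, and without WT array 1 the miR-205 KO difference was -1.75 (adjusted p = 0.0365).

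**Figure D3:**
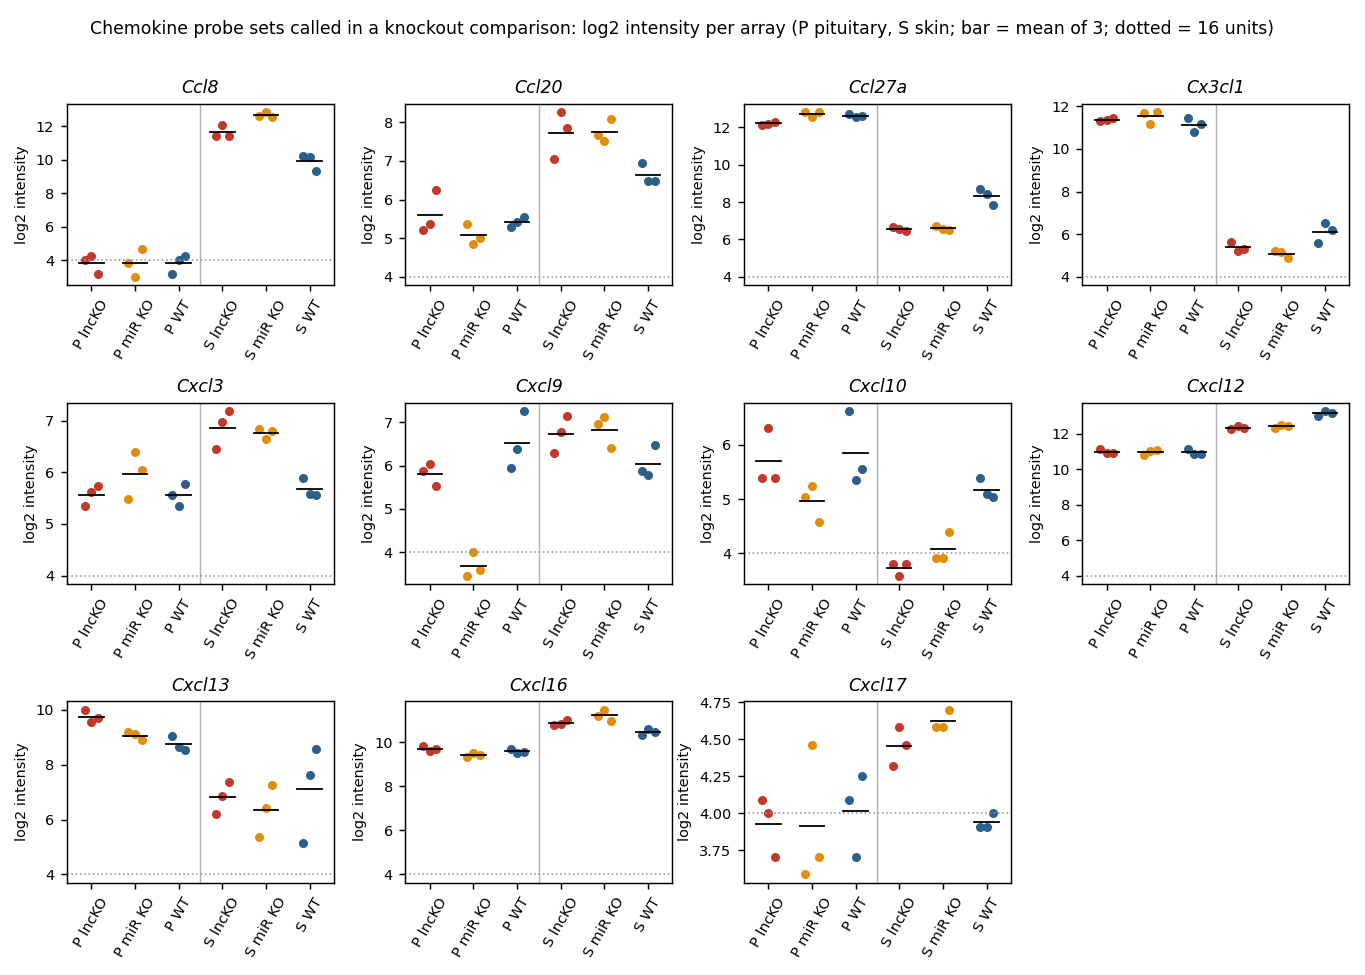
Log2 intensity (y axis) on each of the 18 arrays for the 11 chemokine probe sets called in at least 1 knockout comparison, by group (x axis: lncKO, miR-205 KO and WT of pituitary, then of skin). Points are arrays, bars are means of 3, and the dotted line marks 16 intensity units. In the panels of Ccl8 and Cxcl10 the 3 skin groups separate from each other, and Cxcl9 is the panel with miR-205 KO pituitary set below all other groups.

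Of the 3 epithelial homing ligands, Ccl27a fell in both knockouts. It is the ligand of Ccr10 that keratinocytes use to bring memory T cells into skin. Ccl27a read 100, 95 and 89 in lncKO skin and 106, 95 and 91 in miR-205 KO skin, against 422, 344 and 233 in WT skin. The 6 knockout arrays lay in a narrow band well below the WT arrays. The log2 difference was -1.77 ± 0.24 in lncKO skin (adjusted p = 0.000635) and -1.74 ± 0.24 in miR-205 KO skin (adjusted p = 0.000738). Ccl27a has near-identical copies in the mouse genome, so its signal may not belong to this gene alone, and in RefSeq it overlaps Il11ra1, which had no probe set of its own here. The receptor gene Ccr10 read 10 to 18 on every knockout skin array and 9 to 13 on the WT skin arrays. Ccl25 and Ccl28 were not called.

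Of the 8 probe sets for ligands of lymphoid and dendritic cells, Ccl20 was called in both comparisons. Ccl20, the Ccr6 ligand that epithelia make after cytokine stimulation, read 132, 308 and 230 in lncKO skin and 203, 183 and 273 in miR-205 KO skin. WT skin read 124, 89 and 89, below every knockout array. The difference was 1.08 ± 0.30 in lncKO skin (adjusted p = 0.0299) and 1.12 ± 0.30 in miR-205 KO skin (adjusted p = 0.0242). These calls were lost on leaving out 4 of the 6 arrays in turn in either comparison, WT arrays 2 and 3 among them, with adjusted p up to 0.105. Both were also lost with values under 16 set to 16 (adjusted p = 0.0975 in lncKO skin and 0.0858 in miR-205 KO skin), and that of lncKO when only the arrays of the 2 groups were fitted (adjusted p = 0.0586).

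Ccl19, a Ccr7 ligand of lymph node stroma, read 77, 69 and 72 in lncKO skin and 107, 113 and 109 in miR-205 KO skin, against 107, 96 and 152 in WT skin. The lncKO arrays lay below both other groups, by -0.68 ± 0.22 against WT skin (adjusted p = 0.0551, or 0.0492 with values under 16 set to 16). Ccl21a, another ligand of the same receptor, has a signal that cannot be assigned to that gene alone. It read 17756, 14397 and 16898 in lncKO skin and 18879, 30724 and 14931 in miR-205 KO skin, against 21404, 17986 and 21787 in WT skin. Neither difference was called. The receptor gene Ccr7 fell in both, by -1.09 ± 0.29 in lncKO skin (adjusted p = 0.0251) and by -0.94 ± 0.29 in miR-205 KO skin (adjusted p = 0.0447). Ccl17, a Ccr4 ligand of dendritic cells, read 335, 541 and 621 in lncKO skin and 344, 292 and 651 in miR-205 KO skin, within the span of 296, 278 and 685 in WT skin. Ccl22, its companion at Ccr4, read 171, 159 and 286 in lncKO skin and 137, 206 and 275 in miR-205 KO skin, against 117, 617 and 556 in WT skin. Without WT array 1, Ccl22 was -1.56 on the log2 scale in each knockout (adjusted p = 0.0117 for lncKO and 0.0113 for miR-205 KO).

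The eotaxins, which act on eosinophils through Ccr3, gave no call. Ccl11 read 3436, 3106 and 4659 in lncKO skin and 3163, 4478 and 14719 in miR-205 KO skin, against 990, 4184 and 1739 in WT skin. A single miR-205 KO array carried most of the difference of 1.62 ± 0.54 (adjusted p = 0.0581). Ccl24 read 88, 151 and 152 in lncKO skin and 146, 145 and 135 in miR-205 KO skin, against 152, 65 and 52 in WT skin. It was called without WT array 1, at 1.12 in lncKO skin (adjusted p = 0.0228) and 1.29 in miR-205 KO skin (adjusted p = 0.0121). The receptor gene Ccr3 rose by 1.11 ± 0.34 in miR-205 KO skin (adjusted p = 0.042).

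Without skin WT array 1, 10 of the 39 probe sets were called in lncKO skin and 12 in miR-205 KO skin, in place of 6 and 9. These counts were not set against the share of all probe sets called without that array, so no excess is read from them. Ccl8, Ccl20, Cxcl3, Ccl27a, Cxcl10 and Cxcl12 were called in both, with and without that array. Cxcl16 and Cxcl17 lost their calls without it. The calls gained in both were those of Cxcl2, Ccl22 and Ccl24. For every ligand gained in either comparison, WT array 1 read highest or lowest of the WT skin arrays, so the gain partly follows from the choice of array. Cx3cl1 was gained in lncKO skin, and Cxcl13 and Ccl12 in miR-205 KO skin, Ccl12 at 0.88 on the log2 scale (adjusted p = 0.0275).

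The other genes of chemokine signalling were taken from lists chosen with earlier results of these data known. Of 17 measured chemokine receptors, Ccr7 alone was called in lncKO skin, and Ccr3 and Ccr7 in miR-205 KO skin. No atypical receptor of 5 was called in either. Of 10 NF-kB subunits and inhibitors, Rel and Rela rose and Nfkb2 and Nfkbib fell in both. Rel, a subunit of the factor, read 3195, 2396 and 2872 in lncKO skin and 2708, 3732 and 3875 in miR-205 KO skin, against 1418, 1131 and 1679 in WT skin. Of 14 cytokines that induce chemokines, Il1a and Ltb rose in both. Ifnb1 rose and Tslp fell in lncKO skin. In WT skin Ifnb1 stood at 16 units or less on every array and Ltb read 17, 20 and 16. Both rises therefore start near the dim end, which limits how far they can be read. The epidermal alarmin Il1a read 1508, 664 and 1094 in lncKO skin and 1890, 1185 and 1594 in miR-205 KO skin, against 276, 385 and 538 in WT skin.

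Markers of the other cell types in skin also differed between the groups. Of 5 adipocyte genes Lep, Cidec and Fabp4 were called higher in both knockouts, and the sum over the 5 was 145874 to 221604 units in lncKO skin and 144541 to 255555 in miR-205 KO skin, against 73674 to 122251 in WT skin. Of 6 cartilage genes 3 were called higher in lncKO skin and 4 in miR-205 KO skin. Summed over 6 cartilage genes, the 3 arrays of lncKO skin gave 39858 to 72435 units and those of miR-205 KO skin 48638 to 65130, against 12711 to 18275 in WT skin. Summed over 8 keratinocyte genes, lncKO skin gave 900969 to 988789 and miR-205 KO skin 923437 to 1060127, against 576659 to 709865 in WT skin. Of these 8 only Krt10, a keratin of the upper epidermis, was called higher and Tgm1, a cross-linking enzyme of the cornified layer, lower, and the median log2 difference was -0.04 in lncKO skin and 0.08 in miR-205 KO skin. Fibroblast (4 genes) and mast cell (6 genes) sums were also higher on every knockout array than on any WT array, with 1 gene of each list called, Dcn and Cpa3. The fibroblast median was 0.14 in lncKO skin and -0.02 in miR-205 KO skin. Of 6 skeletal muscle genes 2 were called higher in lncKO skin and 3 in miR-205 KO skin. Sums over 8 T cell genes were lower on every knockout array. They were 2381 to 2765 in lncKO skin and 2451 to 3301 in miR-205 KO skin, against 3344 to 5947 in WT skin. Of these genes only Thy1 was called, in lncKO skin. The median log2 difference over the 8 was -0.20 in lncKO skin and 0.06 in miR-205 KO skin. The sum of 8 hair follicle genes was 213 to 581 in lncKO skin and 294 to 467 in miR-205 KO skin. On the WT skin arrays it ranged from 302 to 9233. Of these genes 3 were called lower in lncKO skin and 2 in miR-205 KO skin. The median log2 difference over the 8 was -2.37 in lncKO skin and -2.26 in miR-205 KO skin. Sums over 8 macrophage genes overlapped, at 70576 to 80938 in lncKO skin and 75323 to 108221 in miR-205 KO skin, against 62548 to 119157 in WT skin. Neutrophil sums (7 genes) overlapped too, and Ngp and Camp stood at 16 or less on every skin array. The part of these markers in the chemokine results was not tested.

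**Figure D4:**
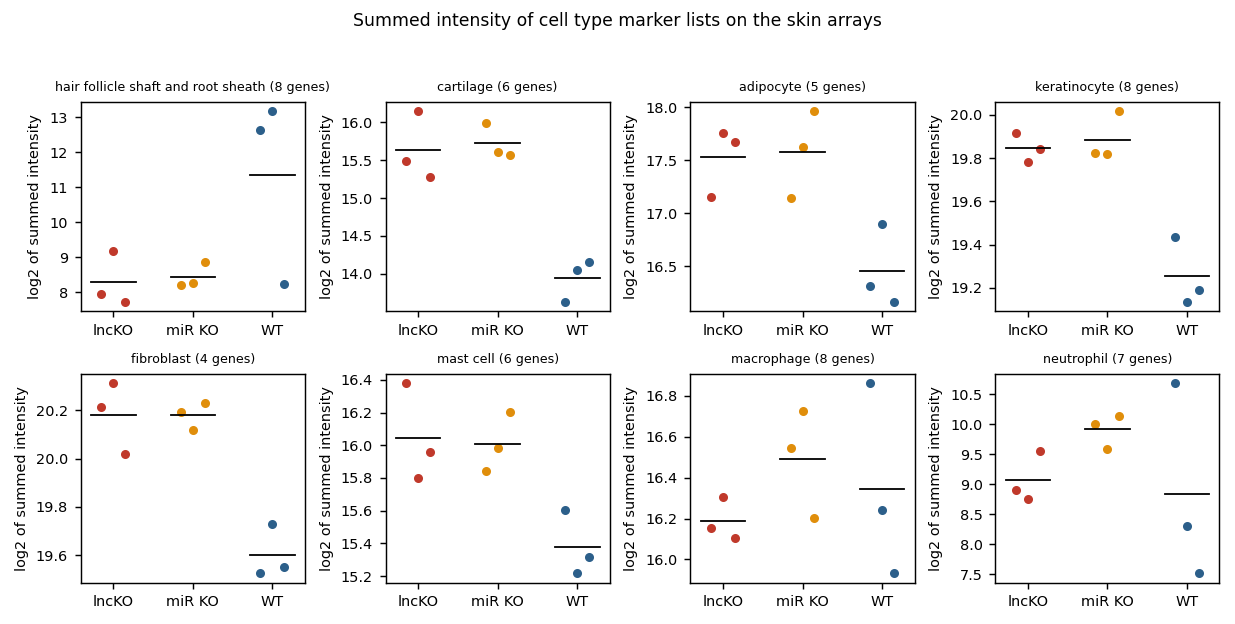
Log2 of the summed intensity of 8 lists of cell type marker genes (y axis) on the skin arrays by group (x axis: lncKO, miR-205 KO, WT). Points are arrays and bars are means of 3. Cartilage, adipocyte, keratinocyte, fibroblast and mast cell sums are higher on all 6 knockout arrays than on the 3 WT arrays, while macrophage and neutrophil sums overlap.

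Between lncKO skin and miR-205 KO skin no difference passed the adjusted threshold: 0 of the 39 were called, and 0% of all probe sets were called higher and 0% lower. The lowest adjusted p was 0.29. At an unadjusted p under 0.05 limma gave 637 of all probe sets and 2 of the 39, Ccl8 and Ccl19. Ccl8 was 2.03-fold lower in lncKO skin than in miR-205 KO skin (log2 difference -1.02 ± 0.28, unadjusted p = 0.00335), and Ccl19 was lower by -0.59 ± 0.22 (unadjusted p = 0.0182). With 3 arrays a group and a median standard error of 0.26, even the 2.03-fold difference of Ccl8 did not pass the adjusted threshold. Differences of that size or smaller may therefore be missed here.

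In lncKO pituitary, 1 of the 39 probe sets was called against WT pituitary: Cxcl13 rose. This compares with 0.342% called higher and 0.358% called lower of all probe sets. The median log2 difference was -0.01 over the 39 and 0.01 over all probe sets. Cxcl13 read 1028, 743 and 822 in lncKO pituitary and 578, 552 and 472 in miR-205 KO pituitary, against 534, 403 and 368 in WT pituitary. The lncKO arrays were all above the other pituitary arrays. It was 1.99-fold higher in lncKO pituitary (1.00 ± 0.20, adjusted p = 0.0443), a call that held on leaving out 1 of the 6 arrays (WT array 10) and was lost on leaving out any of the other 5. It was also lost with values under 16 set to 16 (adjusted p = 0.117), with only the 2 groups fitted (adjusted p = 0.0963) and with all 18 arrays fitted (adjusted p = 0.641). Its receptor gene Cxcr5 read 10 on each lncKO array and 8 to 11 on the WT arrays. Among markers of other cells, Sox2, a folliculostellate and stem cell gene, rose by 1.07 ± 0.18 in lncKO pituitary (adjusted p = 0.0204). Hapln1, a cartilage matrix gene, was lower there, with a log2 difference of -2.11 ± 0.38 (adjusted p = 0.0297). Sums over 6 cartilage genes were 227 to 380 units in lncKO pituitary, against 742 to 922 in WT pituitary. Those over 5 adipocyte genes were 137 to 152, against 207 to 271. No adipocyte gene was called, and Adipoq, Plin1 and Lep stood at 16 or less on all of these arrays. Sums over 5 lymphatic vessel genes were 3130 to 4058 in lncKO pituitary, against 4565 to 6312 in WT pituitary. Prox1 carried these sums, at 2977, 2366 and 3178 in lncKO pituitary, against 5685, 3852 and 4039 in WT pituitary. No lymphatic vessel gene was called, and the median log2 difference of that list was 0.24. The part of these markers in the Cxcl13 result was not tested.

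A few other ligands had lncKO arrays all on 1 side of the WT arrays without passing the threshold. Ccl17 read 806, 481 and 641 in lncKO pituitary and 388, 335 and 424 in miR-205 KO pituitary, against 391, 366 and 336 in WT pituitary (0.79 ± 0.20 for lncKO, adjusted p = 0.115). Ccl27a read 4449, 4690 and 5053 in lncKO pituitary and 7176, 5923 and 7208 in miR-205 KO pituitary, against 6661, 5954 and 6268 in WT pituitary (-0.41 ± 0.16 for lncKO, adjusted p = 0.319). Cxcl15, a lung ligand in mice, read 18, 22 and 18 in lncKO pituitary, against 12, 10 and 13 in WT pituitary (adjusted p = 0.159). Ccl6 read 56, 50 and 36 in lncKO pituitary and 37, 31 and 39 in miR-205 KO pituitary, against 59, 64 and 75 in WT pituitary (adjusted p = 0.337 for lncKO and 0.245 for miR-205 KO).

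In miR-205 KO pituitary, Cxcl9 fell to the dim end of the array. It read 11, 16 and 12 in miR-205 KO pituitary and 59, 66 and 46 in lncKO pituitary, against 62, 83 and 154 in WT pituitary. The miR-205 KO arrays stood below all other 15 arrays of the study. The log2 difference from WT was -2.85 ± 0.30 (adjusted p = 0.00371), and Cxcl9 was the 1 probe set called of the 39. Of all probe sets 0.0409% were called higher and 0.0664% lower, and the median difference was -0.04 over the 39 and 0.01 over all. With every value under 16 set to 16, the difference was -2.53 and its adjusted p 0.149, and the call held on leaving out each array in turn, with adjusted p from 0.0056 to 0.0372. Cxcl10, which shares the receptor Cxcr3, read 33, 38 and 24 in miR-205 KO pituitary and 42, 79 and 42 in lncKO pituitary, against 99, 41 and 47 in WT pituitary. The miR-205 KO arrays were below the WT arrays, by -0.89 ± 0.34 (adjusted p = 0.598). Ccl12, a Ccr2 ligand, read 18, 16 and 16 in miR-205 KO pituitary, against 26, 44 and 50 in WT pituitary (-1.21 ± 0.29, adjusted p = 0.295). Ccl7 read 37, 33 and 28 in miR-205 KO pituitary, against 22, 27 and 18 in WT pituitary (0.56 ± 0.22, adjusted p = 0.608).

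Between the knockouts, lncKO pituitary was above miR-205 KO pituitary for Cxcl9, with a log2 difference of 2.14 ± 0.30 (adjusted p = 0.0151). The miR-205 KO values lie at the dim end, so no fold is read from it, and with values under 16 set to 16 the difference was 1.82 and the call was lost (adjusted p = 0.152). This was the 1 call of the 39, where 0.138% of all probe sets were called higher and 0.153% lower. The call was lost on leaving out lncKO array 13 or 14 or miR-205 KO array 16 or 18, with adjusted p up to 0.0877. No chemokine receptor, atypical receptor, NF-kB gene, cytokine or interferon factor of the lists was called in any pituitary knockout comparison. Summed over 8 T cell genes, miR-205 KO pituitary gave 4513 to 5939 units, against 5218 to 6654 in WT pituitary. Summed macrophage genes gave 1983 to 2779 in miR-205 KO pituitary, against 2474 to 3206 in WT pituitary. Both sets of ranges overlap. Of the T cell genes, Cd3e read only 14, 19 and 15 in miR-205 KO pituitary, against 16, 21 and 23 in WT pituitary. Other genes of that list therefore made up nearly all of its sum. Cartilage sums were 293 to 641 in miR-205 KO pituitary, below the 742 to 922 of WT pituitary, with no gene of that list called.

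Several ligands bright in skin or in pituitary, and the inducible Ccl2 and Ccl5, gave no call in any pituitary knockout comparison. Ccl2 read 29, 26 and 27 in lncKO pituitary and 19, 37 and 28 in miR-205 KO pituitary, against 22, 37 and 46 in WT pituitary. Ccl5 read 23, 34 and 21 in lncKO pituitary and 28, 22 and 19 in miR-205 KO pituitary, against 24, 30 and 21 in WT pituitary. Ccl21a read 99, 60 and 85 in lncKO pituitary and 73, 97 and 76 in miR-205 KO pituitary, against 58, 141 and 59 in WT pituitary. In all 3 the groups overlapped. Cx3cl1 read 2514, 2611 and 2800 in lncKO pituitary and 3288, 2266 and 3382 in miR-205 KO pituitary, against 2748, 1774 and 2329 in WT pituitary. Cxcl12 read 2241, 1968 and 1931 in lncKO pituitary and 1761, 2054 and 2152 in miR-205 KO pituitary, against 2251, 1865 and 1862 in WT pituitary. Cxcl14 read 1234, 883 and 811 in lncKO pituitary and 1207, 1246 and 1209 in miR-205 KO pituitary, against 1042, 1251 and 903 in WT pituitary. These groups overlapped as well, and Cxcl1 stayed between 18 and 26 on all 9 pituitary arrays.

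Between tissues the ligands differed far more. In WT pituitary against WT skin, 4 of the 39 probe sets were called higher and 21 lower, where 25.7% of all probe sets were called higher and 26.4% lower. The lower ones include all Ccl21 probe sets, which are not separate readings. The median log2 difference was -0.87 over the 39 and -0.01 over all probe sets. All mice are labelled female, yet the Y-linked gene Uty read 1892, 2215 and 1949 in WT pituitary, against 6, 13 and 7 in WT skin. Kdm5d and Eif2s3y had the same pattern, and all 9 pituitary arrays read high, so the sex label goes against the pituitary data and the tissues may differ in sex as well. The tissue labels fit their markers: Krt14 read 12 to 20 in WT pituitary, against 113614 to 137172 in WT skin, and Gh read 846707 to 894759 in WT pituitary, against 29 to 2501 in WT skin.

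**Figure D5:**
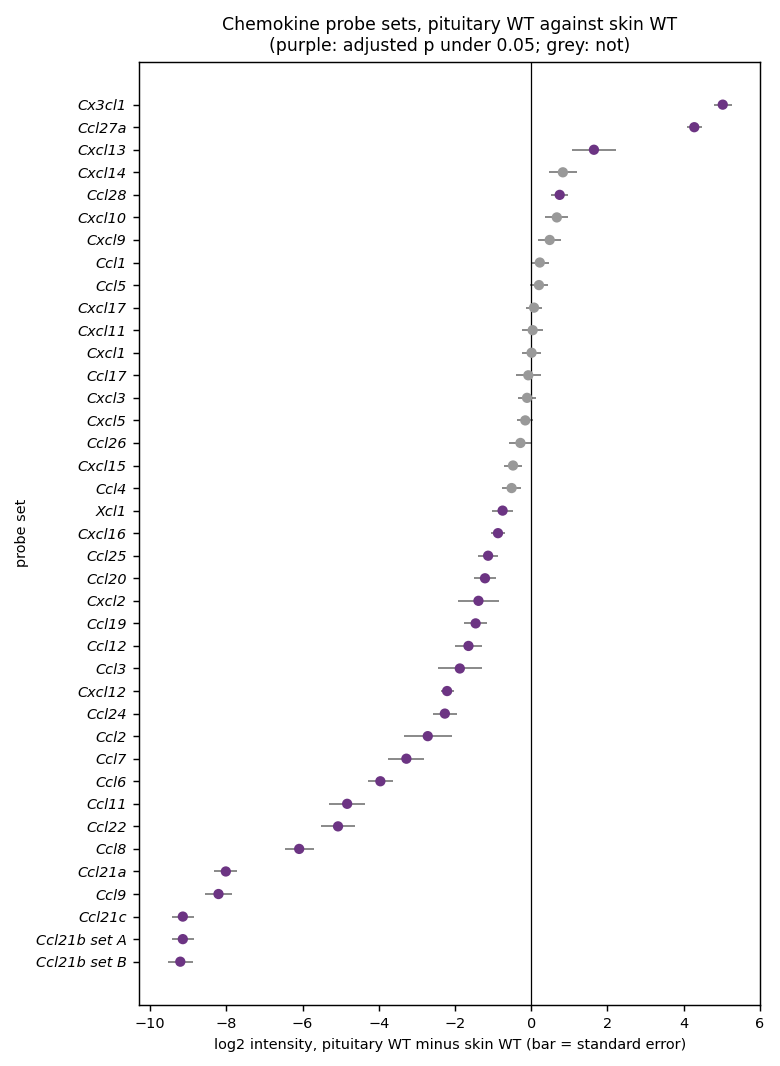
Log2 difference of WT pituitary minus WT skin (x axis) for the 39 chemokine probe sets (y axis, ordered by size), with bars for the standard error and purple points for an adjusted p under 0.05. Cx3cl1 and Ccl27a lie far to the right at 5.03 and 4.28, and the Ccl21 probe sets and Ccl9 far to the left, between -8.02 and -9.21.

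The ligands higher in pituitary were Cx3cl1, Ccl27a, Cxcl13 and Ccl28. Cx3cl1, which neurons and other cells make and microglia sense, read 2748, 1774 and 2329 in WT pituitary, against 48, 92 and 74 in WT skin, and was 32.6-fold higher (5.03 ± 0.24, adjusted p = 2.05e-13). Its receptor gene Cx3cr1 was higher as well, by 1.41 ± 0.38 (adjusted p = 0.00338). Ccl27a read 6661, 5954 and 6268 in WT pituitary, against 422, 344 and 233 in WT skin, and was 19.4-fold higher (4.28 ± 0.20, adjusted p = 1.34e-13). Neither pair of groups overlapped. As stated for skin, Ccl27a has near-identical copies and overlaps Il11ra1, so its signal and fold may not belong to this gene alone. Ccl28, the other ligand of Ccr10, read 211, 236 and 236 in WT pituitary, against 152, 106 and 154 in WT skin (0.75 ± 0.22, adjusted p = 0.00655). Cxcl13 read 534, 403 and 368 in WT pituitary, against 35, 195 and 378 in WT skin. Its groups overlapped, and the call at 1.65 ± 0.58 (adjusted p = 0.0207) was lost without skin WT array 1 (0.66) and without pituitary WT array 10. It was lost too with values under 16 set to 16 (adjusted p = 0.0653) and with only the 2 groups fitted (adjusted p = 0.0864).

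The ligands with the lowest pituitary values relative to skin were the Ccl21 ligands and ligands of macrophages. Ccl21a read 58, 141 and 59 in WT pituitary, against 21404, 17986 and 21787 in WT skin (-8.02 ± 0.31). The second Ccl21b probe set (set B) read 18, 26 and 31 in WT pituitary, against 13952, 9975 and 21745 in WT skin (-9.21 ± 0.34). Set A of Ccl21b, whose readings are those of Ccl21c, read 26, 45 and 36 in WT pituitary, against 20514, 14463 and 25816 in WT skin (-9.15 ± 0.29). Ccl9, a mouse macrophage ligand of Ccr1, read 22, 23 and 17 in WT pituitary, against 14398, 3625 and 4274 in WT skin (-8.21 ± 0.35). Ccl8 read 9, 16 and 19 in WT pituitary, against 1185, 1158 and 632 in WT skin (-6.09 ± 0.38). None of these groups overlapped, and the adjusted p was at most 1.54e-11. Several pituitary values lie at the dim end, so the folds depend on the unknown background of the arrays.

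The tissue calls of Ccl3, Cxcl2 and Xcl1 were lost without skin WT array 1, when the differences were -0.78 for Ccl3 (adjusted p = 0.0609), -0.29 for Cxcl2 (adjusted p = 0.333) and -0.67 for Xcl1 (adjusted p = 0.0881). The Cxcl2 call was also lost without any 1 of the pituitary WT arrays, and that of Xcl1 without skin WT array 2 or pituitary WT array 10 or 12. With only the 2 groups fitted all 3 calls were lost (adjusted p = 0.0676 for Ccl3, 0.168 for Cxcl2 and 0.0614 for Xcl1), and with values under 16 set to 16 those of Cxcl2 (adjusted p = 0.184) and Xcl1 (adjusted p = 0.0661). Those of Ccl2 and Ccl7 shrank to -1.46 and -2.43 and remained called. Of the 10 monocyte and macrophage CC ligands 7 were lower in pituitary, as were 7 of the 8 lymphoid and dendritic probe sets, 2 of the 3 eotaxins and none of the 3 Cxcr3 ligands. The lymphoid and dendritic count includes Ccl21a, the Ccl21b probe sets and Ccl21c, whose signals cannot be told apart, so it is not a count of separate readings. Cxcl12 was lower by -2.21 ± 0.17 (adjusted p = 5.53e-10), while its receptor gene Cxcr4 was higher by 1.04 ± 0.25 (adjusted p = 0.00147) and its scavenger Ackr3 lower by -4.31 ± 0.29. Of 17 receptors 2 were higher and 9 lower. All 8 measured macrophage genes were lower in pituitary, with summed intensities of 2474 to 3206 in WT pituitary, against 62548 to 119157 in WT skin. Cd163 stood at 16 or less on every pituitary array. The sum over 5 lymphatic vessel genes was 4565 to 6312 in WT pituitary, against 4193 to 7714 in WT skin, but it was carried in pituitary by Prox1, and Lyve1 read 14 to 18 there, against 1552 to 4707 in WT skin. The part of these cell differences in the ligand results was not tested.

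The knockout effect was then compared between tissues by an interaction term over all 18 arrays, as the change in pituitary minus the change in skin. For lncKO, 3 of the 39 probe sets had a higher and 3 a lower value in pituitary, where 5.88% of all probe sets were called higher and 3.37% lower. Ccl27a (1.36 ± 0.28, adjusted p = 0.00511), Cxcl12 (0.86 ± 0.24, adjusted p = 0.031) and Cxcl15 (1.03 ± 0.32, adjusted p = 0.0473) were the higher ones. Cxcl9 (-1.41 ± 0.43, adjusted p = 0.0473), Ccl8 (-1.73 ± 0.53, adjusted p = 0.0467) and Cxcl3 (-1.19 ± 0.33, adjusted p = 0.0292) were the lower ones. On leaving out each of the 12 arrays in turn, the Ccl27a call held each time. Those of Cxcl3, Cxcl12, Ccl8, Cxcl9 and Cxcl15 held 6, 5, 4, 3 and 2 times. Without skin WT array 1, Cxcl9 (adjusted p = 0.0786) and Cxcl15 (adjusted p = 0.0825) were not called. Cxcl13 (2.27, adjusted p = 0.0158), Ccl22 (1.97, adjusted p = 0.00934), Cx3cl1 (1.22, adjusted p = 0.0216), Cxcl2 (-1.31, adjusted p = 0.0134) and Ccl24 (-1.13, adjusted p = 0.045) then were. With values under 16 set to 16 the Cxcl9 call was lost (adjusted p = 0.0783). That of Cxcl15 was lost after quantile normalisation (adjusted p = 0.0595), after median centring (adjusted p = 0.0739) and with a trended robust variance (adjusted p = 0.0527). The Cxcl12 call was lost after median centring too (adjusted p = 0.0573). Median centring moved the median of all probe sets to -0.05, against 0.08 without it, and 1 chemokine probe set was then called higher and 3 lower. Over all probe sets 1151 were called higher and 660 lower, 900 and 822 after quantile normalisation, and 808 and 867 after median centring.

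For miR-205 KO, 2 of the 39 were higher and 4 lower, where 6.26% of all probe sets were called higher and 3.69% lower. Ccl27a (1.84 ± 0.28, adjusted p = 0.000586) and Cx3cl1 (1.39 ± 0.34, adjusted p = 0.0137) were the higher ones. Cxcl9 (-3.64 ± 0.43, adjusted p = 7e-05), Ccl8 (-2.74 ± 0.53, adjusted p = 0.00335), Ccl20 (-1.47 ± 0.42, adjusted p = 0.0305) and Cxcl16 (-0.92 ± 0.25, adjusted p = 0.0236) were the lower ones. Ccl27a, Cx3cl1, Cxcl9 and Ccl8 held on leaving out each of the 12 arrays in turn, Cxcl16 9 times and Ccl20 4 times. Without skin WT array 1 the calls gained were Cxcl13 (2.06, adjusted p = 0.025), Ccl22 (1.52, adjusted p = 0.0355), Cxcl2 (-1.50, adjusted p = 0.00584), Ccl24 (-1.38, adjusted p = 0.0174) and Ccl12 (-2.09, adjusted p = 0.00297). With values under 16 set to 16 the Ccl20 call was lost (adjusted p = 0.0609) and Cxcl12 was called at 0.74 (adjusted p = 0.0101). Over all probe sets 1225 were called higher and 723 lower, 910 and 867 after quantile normalisation, and 857 and 1024 after median centring, which left 2 chemokine probe sets higher and 5 lower. Ccl8 stood at 8 to 25 units on all knockout pituitary arrays and at 9 to 19 on the WT pituitary arrays, near the dim end of the array. The Ccl27a signal, here and in the lncKO term, may not belong to that gene alone.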

How the data were processed

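RNA of 18 skin and pituitary samples was labelled as biotinylated cDNA made from amplified cRNA and hybridised to Clariom S arrays, per the labels' protocols. The deposited table holds 1 linear intensity value for each of 22206 probe sets and array. How the authors corrected background, normalised and summarised probes is not given in the sources used here, and the values were used as deposited. Array medians lay between 82 and 96 and values between 4 and 1243875. Gene names came from the platform annotation, which named 1 gene for 19572 probe sets and none for 2634. There are no read counts, so the number of arrays limits precision.

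Log2 intensities were fitted with limma 3.58.1 in R 4.3.3 (lmFit, eBayes, Benjamini-Hochberg over all named probe sets). Knockout comparisons used the 9 arrays of 1 tissue with 6 residual degrees of freedom. Tissue and interaction terms used all 18 arrays with 12. The fit was tested on simulated data. Alternatives were quantile normalisation, median centring, a floor of 16, a filter for more than 16 on at least 3 arrays, a trended robust variance, all probe sets of the table, other sets of arrays and leaving out each array. The members, gene lists and rules were chosen with earlier results of these data known. Per-array values are given for each member past the threshold in a knockout comparison or interaction, for members with all 3 knockout arrays on 1 side of the WT arrays at an unadjusted p under 0.05, for 12 ligands fixed by name (Ccl21a, Ccl27a, Cxcl12, Cxcl14, Cx3cl1, Ccl2, Ccl5, Ccl17, Cxcl1, Cxcl9, Cxcl10 and Cxcl13) and for the 6 highest and 6 lowest tissue differences past the threshold. Ccl3, Ccl11, Ccl22, Ccl24 and others given for skin WT array 1 were chosen after their values were seen. Of 179 listed genes 163 were measured. Sequences are RefSeq's, on GRCm38.p6.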

Additional observations from a re-analysis of the deposited data

Results flagged for a closer look

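The knockout effect differed between pituitary and skin for 9 ligands by the interaction test, with 6 of the 39 probe sets called for each knockout. Of all probe sets 5.88% were called higher and 3.37% lower for lncKO, and 6.26% and 3.69% for miR-205 KO. For lncKO the change in pituitary minus that in skin, on the log2 scale, was -1.73 for Ccl8, 1.36 for Ccl27a, -1.19 for Cxcl3, -1.41 for Cxcl9, 0.86 for Cxcl12 and 1.03 for Cxcl15. For miR-205 KO it was -2.74 for Ccl8, -1.47 for Ccl20, 1.84 for Ccl27a, 1.39 for Cx3cl1, -3.64 for Cxcl9 and -0.92 for Cxcl16. Cxcl9 was called in pituitary, at -2.85 in miR-205 KO, while its skin values overlapped between groups. Cxcl15 read 10 to 22 units on every array of the 4 groups compared, close to the dim end. Its call was lost after quantile normalisation or median centring. Of the lncKO calls, only that of Ccl27a held on leaving out each of the 12 arrays in turn. For miR-205 KO, those of Ccl8, Ccl27a, Cx3cl1 and Cxcl9 did. Ccl8 read 8 to 25 units on every pituitary array, so its terms mainly restate the skin changes. The Ccl27a signal may not belong to that gene alone. No group had more than 3 arrays, so no test for outlying samples was made.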

How the results depend on the processing

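No paired analysis was possible because the sample numbers in the labels run on from group to group and no number recurs between groups. Of the 55 differences called for single ligands, 34 kept their direction and their call under every alternative and every array left out, and none of the 55 changed sign. The other 86, of ligands named by rule, had not been called. Of the 55 calls, 25 were of WT pituitary against WT skin. Among knockout comparisons within a tissue, the calls that held throughout were those of Ccl8, Ccl27a, Cxcl3 and Cxcl10 in both skin knockouts. Every pituitary knockout call was lost under some setting.

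With intensities under 16 set to 16, all probe sets called numbered 1937 in lncKO skin (main 3009), 2173 in miR-205 KO skin (3293), 11 in lncKO pituitary (137), 0 in miR-205 KO pituitary (21) and 18 between the pituitary knockouts (57), and the chemokine count was 0 in place of 1 in all 3 pituitary comparisons. In lncKO skin the chemokine count was then 8 in place of 6, with 3 higher and 5 lower (Ccl20 lost and Ccl19, Cxcl1 and Cxcl17 gained), and in miR-205 KO skin it was 9, as before, with Ccl20 lost and Cxcl1 gained. A trended robust variance gave 307, 41 and 161 in these pituitary comparisons. Fitting only the 2 groups compared gave 59, 5 and 27, with no chemokine in lncKO pituitary. Fitting all 18 arrays gave 6 probe sets between the skin knockouts (0) and again no chemokine in lncKO pituitary. The causes were not tested.

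Leaving out each array in turn gave 4 to 10 chemokine calls in lncKO skin, 5 to 12 in miR-205 KO skin (5 without WT array 3), 0 to 1 in lncKO pituitary and between the pituitary knockouts, 1 to 9 for the lncKO interaction (1 without pituitary WT array 12 or lncKO array 13) and 5 to 11 for the miR-205 KO interaction (11 without skin WT array 1). Over all probe sets it gave 1886 to 2514 in lncKO skin, 1668 to 2775 in miR-205 KO skin, 0 to 1 between the skin knockouts, 11 to 123 in lncKO pituitary, 4 to 8 in miR-205 KO pituitary, 4 to 37 between the pituitary knockouts and 1174 to 1847 for the lncKO interaction. With 3 arrays a group and no stated background level, small changes of dim ligands are not resolved.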
